A study of Mus musculus with 12 samples.

Results

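The genes described here are 10 mouse genes of the inflammasome pathway and of the lytic cell death that follows it: Nlrp3, Nlrc4, Aim2, Mefv, Pycard, Casp1, Casp4, Gsdmd, Gsdme and Ninj1. They were matched by symbol to the 54532 Ensembl genes of the deposited table, all 10 were found, and all 10 were among the 11335 genes tested. Bone marrow cells of wild-type (WT) mice were grown into macrophages with CMG, a source of the growth factor M-CSF, and part of them were turned into osteoclasts, the multinucleated cells that resorb bone, with the cytokine RANKL. The 4 groups of 3 libraries were macrophages (no RANKL) and osteoclasts (RANKL, 100 ng/mL by the sample labels), each untreated or given 100 ng/mL LPS, a lipid of the outer membrane of Gram-negative bacteria, for 3 h on day 5. All groups shared the genotype and the CMG culture. RANKL was present in both osteoclast groups, so that cell type and RANKL cannot be told apart. The labels do not say whether the libraries of a group came from separate animals or cultures, so p-values measure the spread between these libraries only, which may be technical.

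Libraries held between 15651766 and 20281456 reads assigned to genes, and between 9728 and 10301 genes reached 1 FPKM (fragments per kilobase of gene, scaled per library) in each. The summed level of 8 osteoclast markers was 15.3 to 19.2 FPKM in untreated macrophages and 29528 to 30964 FPKM in untreated osteoclasts. The summed level of 7 macrophage markers was 1997 to 2052 FPKM in untreated macrophages and 1723 to 1803 FPKM in untreated osteoclasts, most of it from Csf1r and Cd68, which both cell types express. Markers of lymphocytes summed to at most 0.134 FPKM in any library. Dendritic cell markers summed to 0.202 to 0.280 FPKM in untreated and 5.61 to 6.35 FPKM in LPS-treated macrophages, and to 0.595 to 0.692 and 1.34 to 1.84 FPKM in osteoclasts, with Cd209a at 0 in untreated macrophages and in both osteoclast groups and Flt3 at 0 in LPS-treated macrophages. In LPS-treated macrophages most of the sum came from Xcr1, which was 35.3-fold higher there than in untreated ones. In osteoclasts most came from Zbtb46, at a mean of 0.546 FPKM untreated and 1.01 FPKM with LPS. Neutrophil markers summed to 5.62 to 8.04 FPKM in untreated and 6.88 to 16.4 FPKM in LPS-treated macrophages and to at most 1.88 FPKM in osteoclasts, with Ly6g and Elane at 0 in untreated macrophages and in both osteoclast groups. In LPS-treated macrophages most of this sum came from S100a9, S100a8 and Ngp, at means of 6.29, 3.18 and 2.76 FPKM. Stromal markers summed to 25.5 to 35.9 FPKM in macrophages, to 0.0638 to 0.147 FPKM in untreated osteoclasts and to 0.212 to 0.702 FPKM in LPS-treated osteoclasts, and the part of these lists in the results was not tested. These are bulk samples, in which fewer cells that express a gene and less RNA per cell cannot be told apart.

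Inflammasomes are protein complexes of the cytosol that form when a sensor such as NLRP3, NLRC4, AIM2 or pyrin (the product of Mefv) meets a microbial product or a sign of cell damage. The adaptor ASC (Pycard) links most sensors to caspase-1, which cuts the interleukin precursors and gasdermin D, while mouse caspase-11 (the product of Casp4) binds cytosolic LPS directly and also cuts gasdermin D. The freed gasdermin fragment forms pores in the plasma membrane, and NINJ1 clusters in that membrane to rupture it. In macrophages the transcription of several of these genes is known to rise when LPS is sensed at the cell surface, a step called priming. The values below are transcript levels, and neither inflammasome assembly nor protein was measured.

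The DNA upstream of 3 of the genes is shown because 2 of them, Casp4 and Nlrp3, had the highest LPS effects of the 10 in macrophages on the log2(FPKM + 1) scale, and because the third, Casp1, is the upstream neighbour of Casp4 on chromosome 9. RefSeq start windows of 300 bases on build GRCm38.p6 were given for 9 of the 10 genes, 11 windows in all, with none for Gsdmd. The sequences are written 5′ to 3′ on the strand of the gene (plus for all 3), end before the first annotated exon base, and have in capitals the matches to the NF-kB consensus, the binding motif of a transcription factor family that LPS activates.
Nlrp3, chr11:59541319-59541567: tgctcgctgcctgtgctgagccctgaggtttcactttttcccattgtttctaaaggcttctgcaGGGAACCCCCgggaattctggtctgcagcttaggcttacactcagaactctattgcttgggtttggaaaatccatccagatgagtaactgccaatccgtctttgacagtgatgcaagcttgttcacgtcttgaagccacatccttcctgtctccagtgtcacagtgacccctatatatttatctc
Casp1, chr9:5298267-5298516: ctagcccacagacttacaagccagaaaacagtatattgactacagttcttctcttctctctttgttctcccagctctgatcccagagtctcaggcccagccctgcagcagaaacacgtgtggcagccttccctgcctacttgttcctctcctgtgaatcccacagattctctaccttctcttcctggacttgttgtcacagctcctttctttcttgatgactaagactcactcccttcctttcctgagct
Casp4, chr9:5308599-5308827: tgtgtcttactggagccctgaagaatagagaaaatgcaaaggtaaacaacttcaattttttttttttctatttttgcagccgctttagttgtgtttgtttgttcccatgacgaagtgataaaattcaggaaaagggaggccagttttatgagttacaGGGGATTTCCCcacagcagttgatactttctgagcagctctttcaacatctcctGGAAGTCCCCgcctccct
Nlrp3 has 2 RefSeq windows, of which the one further downstream (chr11:59542436-59542735) held no match and is not shown. The window shown held 1 match, GGGAACCCCC, at bases -186 to -177 from the RefSeq start. That of Casp4 held GGGGATTTCC and GGGATTTCCC, which overlap, at bases -93 to -83, and GGAAGTCCCC at bases -39 to -30. The Casp1 window held none. Casp4 also has 2 windows, which overlap and hold the same matches. On either strand 3 of the 11 windows, of 2 genes, had a match, and the motif was present in 8.46% of all 32851 RefSeq windows of the same length. A pair of GAAA repeats 2 bases apart, TTCNNNGAA and TGANTCA, searched on both strands, were in none of the 11 windows and in 3.44%, 8.3% and 7.81% of all windows. A match is a description of these letters and not evidence of binding.

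In macrophages limma called 8 of the 10 higher with LPS and 2, Nlrc4 and Gsdme, lower, where 69.9% of all genes tested were called, 36.8% higher and 33.1% lower. In osteoclasts it called 4 higher (Nlrp3, Casp1, Casp4 and Ninj1) and none lower, where 17.7% of all genes were called, 11.1% higher and 6.59% lower. Untreated and LPS-treated libraries did not overlap for all 10 in macrophages, against 74% of all genes, and for 8 in osteoclasts, against 34%. The median LPS effect of the 10, on the log2(FPKM + 1) scale, was 1.76 in macrophages and 0.26 in osteoclasts, and that of all genes was 0.02 and 0.01. The interaction (osteoclast LPS effect less macrophage LPS effect) was called below 0 for 7 of the 10 and above 0 for Gsdme, where 56.6% of all genes were called, 26.6% above 0 and 30% below. Gsdme passed the filter of 1 FPKM in 3 libraries through untreated macrophages alone and Nlrc4 through the macrophage groups alone, and Mefv would not have passed without LPS-treated macrophages, so these counts describe the 10 genes and support no statement about them as a set. The scaling of the deposited values is not stated, and from denominators inferred from the values it appears to be to the typical gene. Rescaling to TPM, where each library sums to the same total, moved the median LPS effect of all genes in macrophages to -0.55 and the share of calls that were higher from 52.6% to 18.5%, and it moved the interaction's median to 0.51 and the share of calls above 0 from 47% to 82%. After TPM rescaling, the 10 genes split into 7 higher and 3 lower in macrophages and 3 above and 6 below 0 in the interaction.

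**Figure D1:**
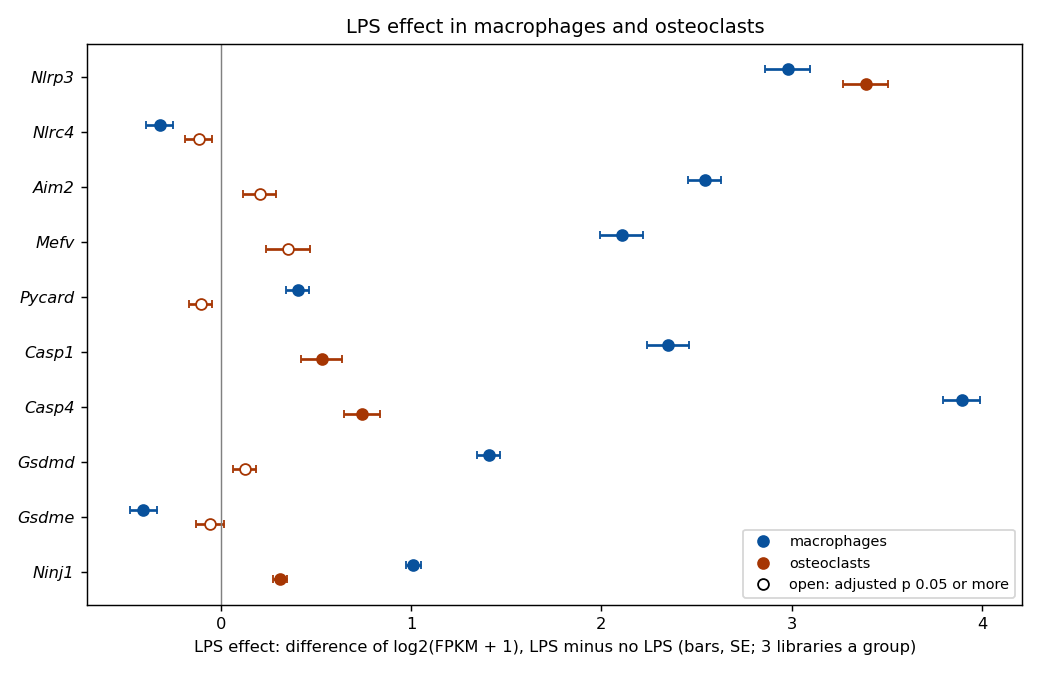
LPS effect (LPS minus untreated, log2(FPKM + 1), with SE as bars) of each gene in macrophages (blue) and osteoclasts (brown), 3 libraries a group, with open points for an adjusted p of 0.05 or more. Among the 8 genes above 0 in macrophages, Nlrp3 alone has its osteoclast point, at 3.39, to the right of its macrophage point, at 2.98, a difference that missed the threshold, while Casp4 is at 3.89 in macrophages and 0.74 in osteoclasts. The macrophage effect of Pycard, 0.40 here, is -0.19 after rescaling to TPM.

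FPKM is a level per length and allows the genes to be set in order within a group. Ninj1 had the highest level of the 10 in all 4 groups, above 94.6% to 98.6% of the genes tested. In untreated macrophages it was followed by Casp1, Nlrp3 and Gsdmd, where the libraries of Casp1 and Nlrp3 overlapped, then by Aim2 and Pycard, which also overlapped, and by Nlrc4, Casp4 and Gsdme. Mefv was last there. With LPS the macrophage order became Ninj1, Nlrp3, Casp1, then Gsdmd, Casp4 and Aim2 with overlapping libraries, then Pycard, Mefv, Nlrc4 and Gsdme. Untreated osteoclasts had Gsdmd second, followed by Casp1, Casp4, Aim2 and Pycard, and then Nlrp3, Nlrc4, Mefv and Gsdme, each of which overlapped the next. With LPS the osteoclast order was Ninj1, Gsdmd, then Casp1, Nlrp3 and Casp4 with overlapping libraries, then Aim2, Pycard, Mefv, Nlrc4 and Gsdme.

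**Figure D2:**
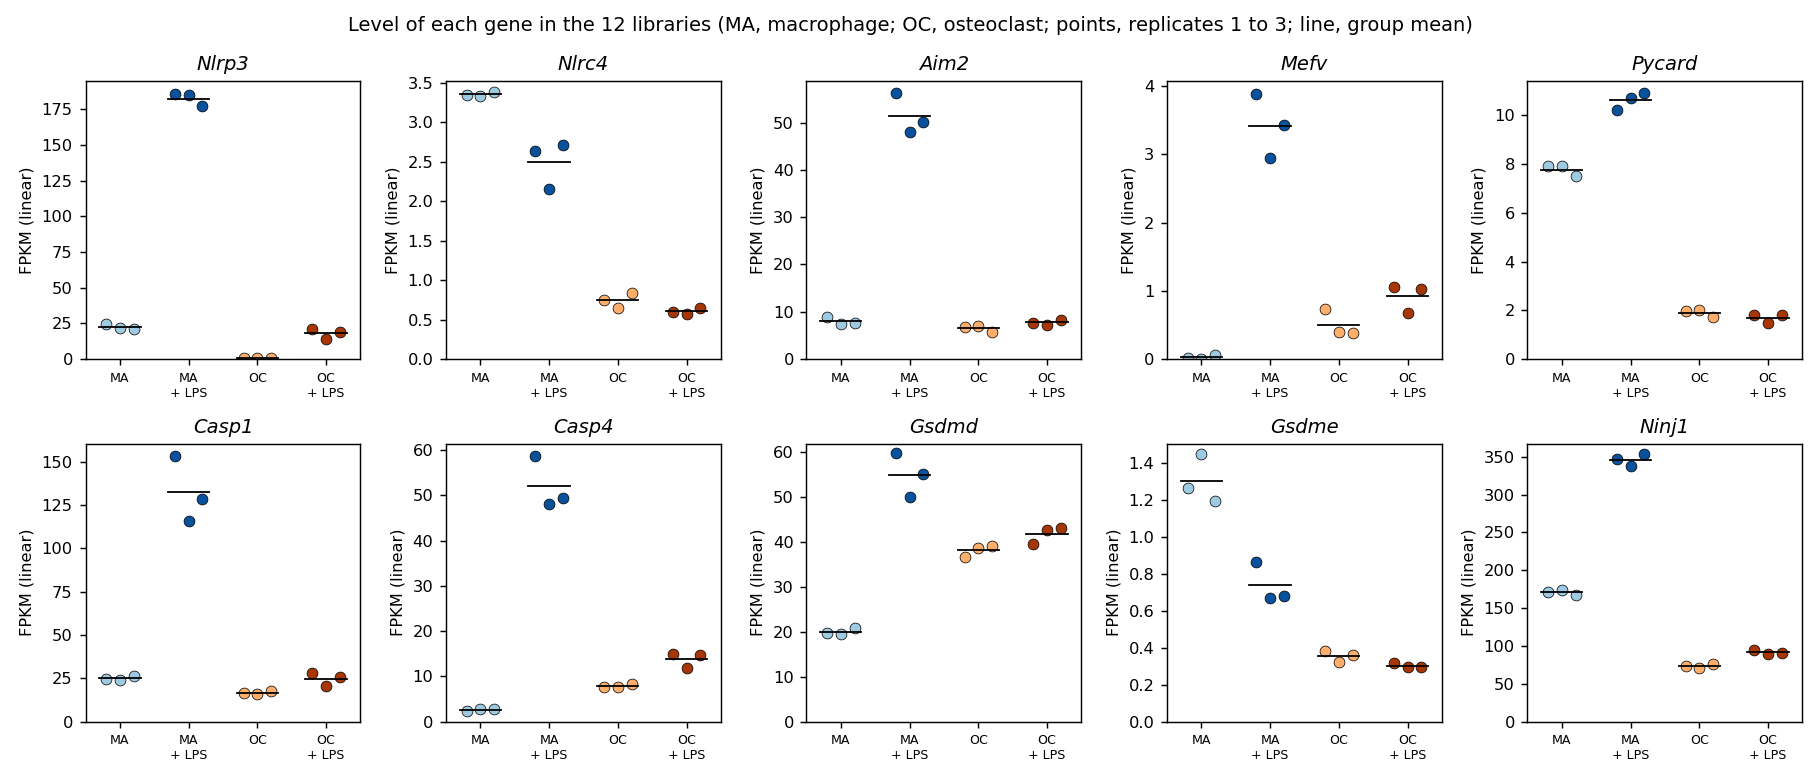
FPKM of each gene (linear axes that start at 0 and differ between panels) in the 12 libraries, with replicates 1 to 3 of a group as points from left to right and the group mean as a line. LPS-treated macrophages are the highest group in 8 panels (for Pycard on this scale but not after TPM rescaling), untreated macrophages are highest for Nlrc4 and Gsdme, and the highest single library is at 353 FPKM for Ninj1 and at 1.45 FPKM for Gsdme.

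Nlrp3, the sensor of potassium loss and membrane damage (ENSMUSG00000032691, chromosome 11, 59541568 to 59566956, plus strand, GRCm38), was at 24.6, 21.4 and 20.9 FPKM in untreated macrophages and at 186, 185 and 177 FPKM with LPS. Untreated osteoclasts held 0.895, 0.642 and 0.827 FPKM, from 168 reads in all, and LPS-treated osteoclasts 21.0, 13.9 and 19.0 FPKM. Neither cell type's groups overlapped, and of the LPS-treated osteoclasts 2 lay below every untreated macrophage library and replicate 1 at the lower edge of their range. The mean rose 8.17-fold in macrophages (log2 difference 2.98, SE 0.12, limma adjusted p 3.80e-10) and 22.8-fold in osteoclasts (3.39, SE 0.12, adjusted p 3.28e-09). The ratio of the recovered reads in osteoclasts was 23.1, with a 95% interval of 19.8 to 27.1 that covers counting error only. In osteoclasts the LPS effect of Nlrp3 ranked 33rd from the highest of 11335 genes, and in macrophages 280th. On the log2(FPKM + 1) scale its interaction was 0.41 (SE 0.17, adjusted p 0.0558), which missed the threshold. As a log2 ratio of means it was 1.48, and it was called in 7 of 20 alternatives, among them a pseudocount of 0.1 (1.31, adjusted p 1.87e-04), TPM (1.56, 7.40e-06), quantile normalization (0.99, 3.12e-04) and voom on the recovered reads (1.46, 4.55e-04). Without LPS-treated osteoclast replicate 2 it was 0.57 (adjusted p 8.10e-04). The level after LPS stayed lower in osteoclasts, at 9.83% of that in LPS-treated macrophages (log2 difference -3.30, SE 0.12, adjusted p 7.12e-11), and without LPS it was 28.4-fold lower (-3.71, SE 0.12, adjusted p 3.60e-11).

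Nlrc4, which joins the NAIP proteins to sense bacterial flagellin and secretion systems (ENSMUSG00000039193, chromosome 17, 74425438 to 74459142, minus strand), was at 3.35, 3.34 and 3.38 FPKM in untreated macrophages and 2.63, 2.15 and 2.71 FPKM with LPS. It was at 0.745, 0.651 and 0.834 FPKM in untreated osteoclasts and 0.598, 0.576 and 0.649 FPKM in LPS-treated ones. Macrophage libraries were thus all above osteoclast libraries, and in both cell types each LPS-treated library was below each untreated one. Nlrc4 fell in macrophages by 0.32 on the log2 scale (SE 0.07, adjusted p 0.00162), a fall of 0.97 after TPM rescaling. The log2 difference in osteoclasts was -0.12 (SE 0.07, adjusted p 0.305), and the interaction was 0.20 (SE 0.10, adjusted p 0.106), called only after TPM rescaling (0.74, adjusted p 4.98e-04). Without LPS, Nlrc4 was 4.52-fold lower in osteoclasts (log2 difference -1.32, SE 0.07, adjusted p 4.07e-09), or -2.15 on the TPM scale.

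Aim2, the sensor of double-stranded DNA in the cytosol (ENSMUSG00000037860, chromosome 1, 173350879 to 173466040, plus strand), differed little between the untreated cell types and widely after LPS. It was at 8.96, 7.47 and 7.57 FPKM in untreated macrophages, 56.3, 48.0 and 50.0 FPKM in macrophages given LPS, 6.86, 7.07 and 5.81 FPKM in untreated osteoclasts and 7.65, 7.25 and 8.29 FPKM in LPS-treated osteoclasts. LPS-treated macrophages stood far above the other 9 libraries, which lay between 5.81 and 8.96 FPKM. LPS raised Aim2 6.43-fold in macrophages (log2 difference 2.54, SE 0.09, adjusted p 8.87e-11). In osteoclasts the ratio of means was 1.17 with groups that did not overlap, and the log2 difference of 0.21 (SE 0.09, adjusted p 0.129) was not called. The interaction was -2.34 (SE 0.12, adjusted p 1.39e-08). The difference between the untreated cell types, -0.25 (SE 0.09, adjusted p 0.0202), was not called without untreated macrophage replicate 1 (-0.17, adjusted p 0.0950) or untreated osteoclast replicate 3 (-0.17, adjusted p 0.0943), and was -0.67 after TPM rescaling. With LPS the osteoclast level was 15.0% of the macrophage level (log2 difference -2.58, SE 0.09, adjusted p 3.58e-11).

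Mefv, whose product pyrin responds to bacterial toxins (ENSMUSG00000022534, chromosome 16, 3707218 to 3718097, minus strand), was nearly unread in untreated macrophages, with 1, 0 and 4 reads. LPS-treated macrophages held 161, 143 and 157 reads, or 3.88, 2.95 and 3.44 FPKM. Untreated osteoclasts held 44, 22 and 21 reads, or 0.733, 0.400 and 0.380 FPKM, and LPS-treated osteoclasts 68, 34 and 61 reads, or 1.06, 0.678 and 1.03 FPKM. The osteoclast groups overlapped, through untreated replicate 1 and LPS-treated replicate 2, and both lay above untreated macrophages and below LPS-treated ones. Corrected for library scale, the read rate rose 152-fold with LPS in macrophages (95% counting interval 64.8 to 471.4), and it was 22.9-fold higher in untreated osteoclasts than in untreated macrophages (9.46 to 72.4). On the log2(FPKM + 1) scale, which compresses such low levels, the macrophage LPS effect was 2.11 (SE 0.11, adjusted p 6.53e-09), and it was 7.41 in voom and 4.86 when the pseudocount was 0.1. The untreated cell types differed by 0.55 (SE 0.11, adjusted p 8.09e-04), by 2.28 with that pseudocount and by 4.64 in voom. The osteoclast LPS effect, 0.35 (SE 0.11, adjusted p 0.0528), missed the threshold, and it was called in 6 of 20 alternatives, including without untreated replicate 1 (0.46, adjusted p 0.0192) and without LPS-treated replicate 2 (0.45, adjusted p 0.0211). The interaction was -1.75 (SE 0.16, adjusted p 1.88e-06), -4.08 with a pseudocount of 0.1 and -6.51 in voom, called in each.

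Pycard, the gene of the adaptor ASC (ENSMUSG00000030793, chromosome 7, 127989708 to 127993867, minus strand), differed mainly between cell types. Its levels were 7.90, 7.93 and 7.49 FPKM in untreated and 10.2, 10.7 and 10.9 FPKM in LPS-treated macrophages, against 1.95, 1.99 and 1.73 FPKM in untreated and 1.79, 1.49 and 1.80 FPKM in LPS-treated osteoclasts. The lowest macrophage library was thus over the highest osteoclast library, and the osteoclast groups overlapped each other. Osteoclasts were 4.11-fold lower without LPS (log2 difference -1.60, SE 0.06, adjusted p 1.57e-10) and 6.27-fold lower with it (-2.11, SE 0.06, adjusted p 9.44e-12). In macrophages Pycard was 0.40 higher with LPS on the log2 scale (SE 0.06, adjusted p 7.51e-05) as deposited and 0.19 lower after TPM rescaling (-0.19, adjusted p 0.0241), so its direction there depends on the scaling. The osteoclast LPS effect was -0.10 (SE 0.06, adjusted p 0.274), and the interaction of -0.51 (SE 0.09, adjusted p 2.95e-04) was 0.00 and not called after TPM rescaling. Pycard shares 485 of its 3800 exon bases (12.8%) with Gm45205 on the opposite strand, listed at 0.0800 FPKM or less as a group mean, and no source used here says whether counting used strand.

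A ratio of 2 genes within a library does not depend on how the library was scaled. Nlrp3 over Pycard, a sensor over its adaptor, was 2.87 ± 0.218 in untreated macrophages, 17.2 ± 0.993 in macrophages given LPS, 0.419 ± 0.0845 in untreated osteoclasts and 10.5 ± 1.17 in LPS-treated osteoclasts (SD, n = 3). For this pair, the level of Pycard thus exceeded that of Nlrp3 in untreated osteoclasts alone. The 4 groups did not overlap in any of the 4 comparisons of 2 groups. For this and the 2 ratios below, 12 comparisons in all, each exact two-sided permutation test gave p = 0.1, the smallest that 3 libraries against 3 allow (0.1 after adjustment), so that none can pass 0.05.

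**Figure D3:**
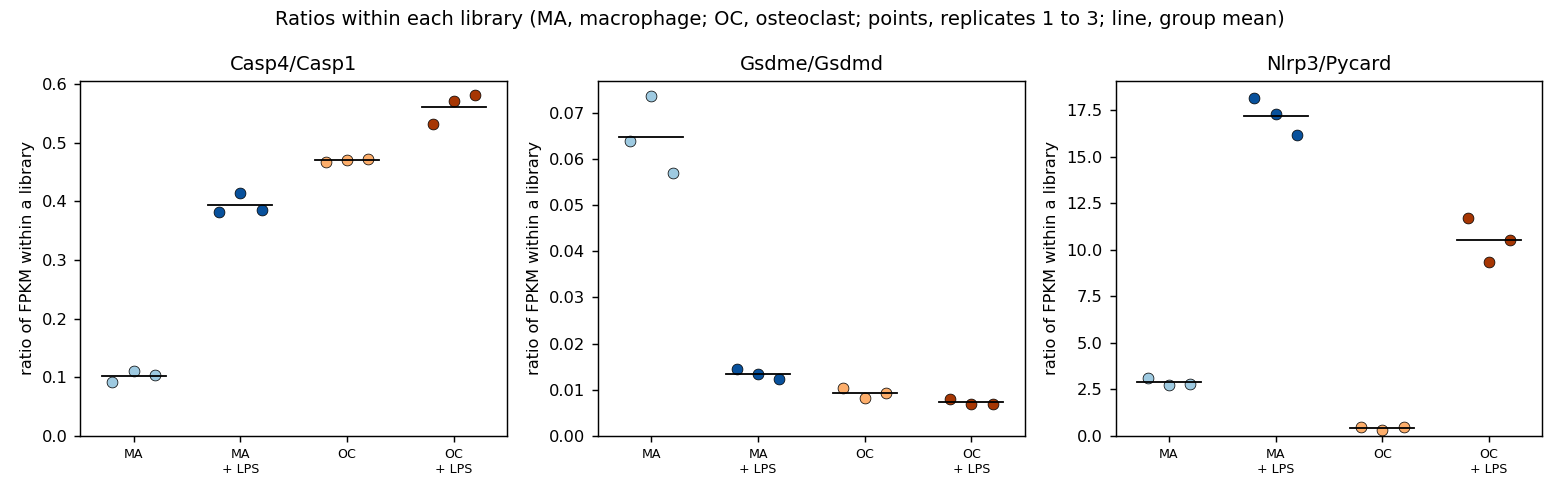
Ratios of FPKM within each library for Casp4 over Casp1, Gsdme over Gsdmd and Nlrp3 over Pycard (linear axes from 0, replicates 1 to 3 as points, group mean as a line). Casp4 over Casp1 climbs from 0.102 in untreated macrophages to 0.562 in LPS-treated osteoclasts, and Gsdme over Gsdmd is highest in untreated macrophages, at 0.0649.

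Casp1, the caspase that matures the interleukin precursors (ENSMUSG00000025888, chromosome 9, 5298517 to 5307265, plus strand), was at 24.5, 24.3 and 26.2 FPKM in untreated macrophages and 153, 116 and 128 FPKM with LPS. Untreated osteoclasts held 16.6, 16.1 and 17.5 FPKM and LPS-treated osteoclasts 28.2, 20.7 and 25.6 FPKM. The groups did not overlap within either cell type, and LPS-treated osteoclasts lay on both sides of the untreated macrophage libraries. LPS raised Casp1 5.30-fold in macrophages (log2 difference 2.35, SE 0.11, adjusted p 1.55e-09) and 1.48-fold in osteoclasts (0.53, SE 0.11, adjusted p 0.00529), and the interaction was -1.82 (SE 0.15, adjusted p 9.40e-07). Osteoclasts had 67.0% of the macrophage level without LPS (log2 difference -0.55, SE 0.11, adjusted p 5.73e-04, and -0.98 after TPM rescaling) and 18.7% with it (-2.37, SE 0.11, adjusted p 6.72e-10).

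Casp4, which encodes caspase-11, the cytosolic LPS receptor of the mouse (ENSMUSG00000033538, chromosome 9, 5308828 to 5336783, plus strand), begins 1562 bases after the end of Casp1 and behaved differently without LPS. Untreated macrophages held 2.27, 2.71 and 2.71 FPKM and untreated osteoclasts 7.76, 7.59 and 8.26 FPKM, a 3.07-fold higher osteoclast level (log2 difference 1.32, SE 0.10, adjusted p 7.25e-08). With LPS the order turned: macrophages reached 58.6, 48.1 and 49.4 FPKM and osteoclasts 15.0, 11.8 and 14.9 FPKM, or 26.7% of the macrophage level (-1.83, SE 0.10, adjusted p 2.27e-09). No groups overlapped in these comparisons. LPS thus raised Casp4 20.3-fold in macrophages (3.89, SE 0.10, adjusted p 5.28e-12) and 1.77-fold in osteoclasts (0.74, SE 0.10, adjusted p 1.86e-04). Its interaction of -3.15 (SE 0.14, adjusted p 2.76e-09) was the lowest of the 10 genes on this scale and 103rd from the lowest of 11335. Casp4 over Casp1 within a library was 0.102 ± 0.00944 in untreated macrophages, 0.394 ± 0.0178 in macrophages given LPS, 0.470 ± 0.00248 in untreated osteoclasts and 0.562 ± 0.0256 in LPS-treated osteoclasts (SD, n = 3). The ratio rose 3.85-fold with LPS in macrophages and 1.20-fold in osteoclasts. Casp1, Casp4 and Casp12, which begins 8646 bases after Casp4, are related in sequence, and how reads that fit more than 1 of them were counted is not stated. The upstream sequence of Casp4 shown above held 3 matches to the NF-kB consensus, some of which overlap, and that of Casp1 none. Any part of such matches in the LPS effects was not tested.

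Gsdmd, the pore-forming substrate of both caspases (ENSMUSG00000022575, chromosome 15, 75862327 to 75867408, plus strand), was also higher in osteoclasts without LPS. Untreated osteoclasts held 36.6, 38.7 and 39.1 FPKM and untreated macrophages 19.7, 19.6 and 20.9 FPKM, a 1.90-fold difference (log2 0.89, SE 0.06, adjusted p 3.84e-08, and 0.50 after TPM rescaling). LPS brought macrophages to 59.9, 50.1 and 55.1 FPKM and osteoclasts to 39.5, 42.7 and 43.0 FPKM. All LPS-treated macrophage libraries were above all osteoclast libraries. Gsdmd rose 2.74-fold in macrophages (log2 difference 1.41, SE 0.06, adjusted p 7.85e-10, and 0.80 after TPM rescaling). In osteoclasts the ratio was 1.09, with groups that did not overlap and a log2 difference of 0.13 (SE 0.06, adjusted p 0.183) that was not called. The interaction was -1.28 (SE 0.09, adjusted p 1.21e-07, and -0.74 after TPM rescaling). With LPS, osteoclasts held 75.9% of the macrophage level (-0.39, SE 0.06, adjusted p 7.45e-05), a difference of -0.23 after TPM rescaling and of -0.08 that was not called after quantile normalization (adjusted p 0.190).

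Gsdme, a second pore-forming gasdermin (ENSMUSG00000029821, chromosome 6, 50188888 to 50263862, minus strand), was low throughout, and in macrophages it fell with LPS where Gsdmd rose. It was at 1.26, 1.45 and 1.19 FPKM in untreated macrophages, 0.861, 0.668 and 0.681 FPKM in macrophages given LPS, 0.383, 0.320 and 0.360 FPKM in untreated osteoclasts and 0.317, 0.295 and 0.297 FPKM in LPS-treated osteoclasts. Each of these groups lay below the one before, with no overlap. Gsdme fell with LPS in macrophages (log2 difference -0.41, SE 0.07, adjusted p 2.85e-04, and -1.10 after TPM rescaling), and the means fell 1.76-fold. The osteoclast LPS effect was -0.06 (SE 0.07, adjusted p 0.656), from 237 untreated and 207 LPS-treated reads, a read rate ratio of 0.855 with a 95% counting interval of 0.706 to 1.03. Its interaction, 0.35 (SE 0.10, adjusted p 0.0110), was not called after quantile normalization (0.16, adjusted p 0.217) and was 0.96 after TPM rescaling and 0.61 in voom. Osteoclasts were 3.67-fold lower without LPS (-0.76, SE 0.07, adjusted p 8.15e-07, and -1.62 with a pseudocount of 0.1) and 2.43-fold lower with it (-0.41, SE 0.07, adjusted p 1.69e-04, and -1.05 with that pseudocount). Gsdme over Gsdmd was 0.0649 ± 0.00832 in untreated macrophages, 0.0134 ± 0.00100 with LPS, 0.00931 ± 0.00109 in untreated osteoclasts and 0.00728 ± 0.000650 with LPS (SD, n = 3), so that Gsdmd made up nearly all gasdermin transcript of the pair in every group.

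Ninj1, whose product ruptures the plasma membrane after the pore has formed (ENSMUSG00000037966, chromosome 13, 49187485 to 49196244, plus strand), was at 171, 175 and 167 FPKM in untreated macrophages and 346, 338 and 353 FPKM with LPS. Osteoclasts held 74.0, 71.0 and 76.2 FPKM untreated and 94.9, 89.8 and 90.4 FPKM with LPS. All 4 groups were apart, in the order of LPS-treated macrophages, untreated macrophages, LPS-treated osteoclasts and untreated osteoclasts. Ninj1 rose 2.02-fold with LPS in macrophages (log2 difference 1.01, SE 0.04, adjusted p 2.37e-10) and 1.24-fold in osteoclasts (0.31, SE 0.04, adjusted p 1.22e-04). The macrophage effect was 0.37 after TPM rescaling and 0.19 after quantile normalization, still called. The interaction of -0.70 (SE 0.05, adjusted p 4.11e-07) was -0.12 after TPM rescaling (adjusted p 0.0420) and 0.03 and not called after quantile normalization (adjusted p 0.638), so whether LPS raised Ninj1 more in macrophages depends on the scaling. The lower level in osteoclasts was called under every alternative run, from -1.63 to -1.17 without LPS and from -1.93 to -1.53 with it, where the values as deposited were -1.20 (SE 0.04, adjusted p 3.36e-11) and -1.90 (SE 0.04, adjusted p 5.29e-13).

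Set side by side, the untreated cell types differed in both directions. Osteoclasts were higher for Casp4, Gsdmd and Mefv and lower for the other 7 genes, where 77.8% of all genes were called, 38.8% higher and 39% lower. The libraries of the cell types did not overlap for any of the 10, without LPS (81.4% of all genes) or with it (83.6%). With LPS all 10 were lower in osteoclasts, where 83.9% of all genes were called, 40.9% higher and 43% lower. Relative to LPS-treated macrophages, the level in LPS-treated osteoclasts ran from 9.83% for Nlrp3 to 75.9% for Gsdmd, with 8 of the 10 genes between 15.0% and 41.1%. Of the macrophage markers, the same percent was 0.679% for Cx3cr1, 0.814% for Mrc1, 7.01% for Mertk and 9.28% for Adgre1, the gene of the macrophage surface protein F4/80. It was 17.6% for Itgam, 69.7% for Csf1r and 175.5% for Cd68. Adgre1 itself was at 37.0, 31.2 and 31.3 FPKM in untreated and 73.1, 42.5 and 70.9 FPKM in LPS-treated osteoclasts. The ratio of LPS-treated to untreated osteoclasts was 1.88 for Adgre1, 1.08 for Mrc1, 0.527 for Cx3cr1, 0.835 for Mertk, 0.886 for Itgam, 0.944 for Csf1r and 0.980 for Cd68. LPS-treated osteoclast replicate 2 was the lowest of its group for 5 of these 7 markers and the highest for the other 2, Csf1r and Cd68. Remaining macrophages in the osteoclast cultures were not counted in these data, and their part in the LPS effects of osteoclasts was not tested.

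**Figure D4:**
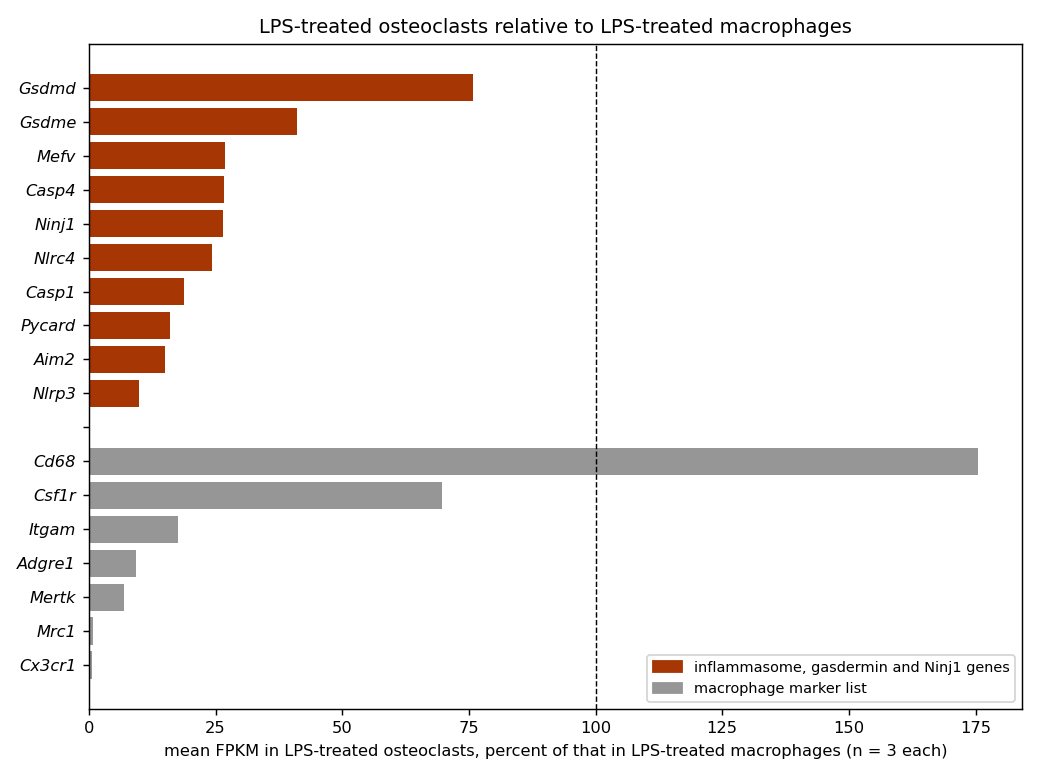
Mean FPKM in LPS-treated osteoclasts as a percent of that in LPS-treated macrophages (3 libraries each, axis from 0, dashed line at equality), for the 10 genes (brown) and for 7 macrophage markers (grey). Gsdmd stands at 75.9% and Nlrp3 at 9.83%, while the markers spread from 0.679% for Cx3cr1 to 175.5% for Cd68.

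Among the libraries of a group, LPS-treated osteoclast replicate 2 was the lowest for 9 of the 10 genes and the highest for none. LPS-treated macrophage replicate 2 was the lowest for 8 and the highest for none. Untreated groups were more mixed, with at most 6 genes lowest in any 1 library. These replicates had no separate batch in the labels.

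The wider pathway was read from a list of 47 other genes, of which 34 were tested. Some of the 34 passed the filter only through groups where they are high, so the counts below describe these genes and support no statement about them as a set. In macrophages 22 of the 34 were called higher with LPS and 6 lower, beside 36.8% and 33.1% of all genes, but 11 of the 22 turned below 0 after TPM rescaling and 6 after quantile normalization. In osteoclasts 9 were higher and 5 lower, beside 11.1% and 6.59% of all genes, and none of these turned. The interaction was below 0 for 21 and above 0 for 5, beside 30% and 26.6% of all genes, and 10 of the 21 turned above 0 after TPM rescaling and 4 after quantile normalization. The medians of the 34 were 0.36 in macrophages and -0.01 in osteoclasts, beside 0.02 and 0.01 for all genes. None of the 8 listed genes of other gasdermins and NINJ2 reached the filter, and their highest value in any library was 0.225 FPKM, for Gsdmc4.

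Of the 7 other sensors tested, 4 were called higher and 2 lower with LPS in macrophages (36.8% and 33.1% of all genes), and after TPM rescaling 3 of the 4, all but Zbp1, turned below 0. In untreated osteoclasts 6 of the 7 were lower than in untreated macrophages (39% of all genes), and none of these turned. Nlrp1a and Nlrp1b passed the filter through the macrophage groups alone, and Nlrp10 would not have passed without the osteoclast groups. These counts therefore support no statement about the sensors as a set. Zbp1, a sensor of Z-form nucleic acids, rose from 2.02 ± 0.0904 to 40.6 ± 5.75 FPKM in macrophages (SD, n = 3, log2 difference 3.77, SE 0.14, adjusted p 2.42e-10) and from 0.213 ± 0.185 to 2.79 ± 0.640 FPKM in osteoclasts (1.64, SE 0.14, adjusted p 6.72e-06, and 4.82 in voom). Its interaction of -2.13 was called as deposited (SE 0.20, adjusted p 2.49e-06) but was 0.51 in voom and -0.80 with a pseudocount of 0.1, called in neither, so the direction of that difference is uncertain. Nlrp1b, the sensor of anthrax lethal factor, was at 4.28 ± 0.441 FPKM in untreated macrophages and 0.238 ± 0.0934 FPKM in untreated osteoclasts (SD, n = 3, log2 difference -2.09, SE 0.08, adjusted p 1.33e-10, and -4.21 in voom). Of these 7, Nlrp10 was the 1 called higher in untreated osteoclasts, at 5.39 ± 0.268 against 0.955 ± 0.138 FPKM (SD, n = 3, 1.71, SE 0.07, adjusted p 2.22e-10). Naip5, a flagellin receptor that works with NLRC4, was lower there, as Nlrc4 was (log2 difference -1.55, SE 0.10, adjusted p 1.41e-08), although reads may be split among the near-identical Naip genes.

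Of 14 genes of inflammasome assembly and regulation, 9 were higher and 3 lower with LPS in macrophages (36.8% and 33.1% of all genes), and 4 of the 9 turned below 0 after TPM rescaling. In osteoclasts 5 were higher and 2 lower (11.1% and 6.59% of all genes). Among them are the guanylate-binding proteins, GTPases that open bacterial membranes and help caspase-11 reach LPS. Gbp5 went from 0.147 ± 0.0330 to 429 ± 24.3 FPKM in macrophages (SD, n = 3, log2 difference 8.55, SE 0.15, adjusted p 3.66e-13) and from 0.239 ± 0.0893 to 19.9 ± 5.37 FPKM in osteoclasts (4.04, SE 0.15, adjusted p 4.50e-09, and 6.42 in voom). Its interaction was -4.51 (SE 0.21, adjusted p 5.25e-09) and ran from -5.09 to -4.23 under the alternatives. Gbp2 rose by 7.34 (SE 0.18, adjusted p 6.14e-12) and 4.14 (SE 0.18, adjusted p 2.13e-08, and 6.38 in voom) on the log2 scale, and its interaction of -3.20 (SE 0.26, adjusted p 6.56e-07) was -1.65 and not called in voom. Gm12250, which encodes the GTPase IRGB10, rose by 5.95 in macrophages (SE 0.15, adjusted p 5.16e-12) and by 3.72 in osteoclasts (SE 0.15, adjusted p 7.86e-09, and 5.68 in voom), with an interaction of -2.23 (SE 0.21, adjusted p 2.03e-06). As ratios of means these rises were 74.3-fold and 45.1-fold, with an interaction of only -0.72 as a log2 ratio. The size of the Gm12250 interaction thus depends on the scale, and it was not run under the alternatives. Pstpip1, a partner of pyrin, was the gene of this role that was higher in untreated osteoclasts, at 194.6 ± 5.29 against 14.4 ± 0.219 FPKM (SD, n = 3, 13.5-fold, log2 difference 3.67, SE 0.05, adjusted p 2.55e-14). P2rx7, the ATP-gated channel upstream of NLRP3, was lower there, at 1.78 ± 0.198 against 11.7 ± 0.685 FPKM (SD, n = 3, -2.19, SE 0.06, adjusted p 1.75e-11).

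Of the 4 other caspases tested, Casp9, the initiator of mitochondrial apoptosis, fell from 8.91 ± 0.0442 to 1.54 ± 0.104 FPKM with LPS in macrophages (SD, n = 3, log2 difference -1.97, SE 0.06, adjusted p 3.79e-11) and by 0.34 in osteoclasts (SE 0.06, adjusted p 0.00233), with an interaction of 1.63 (SE 0.09, adjusted p 1.49e-08, and 2.45 after TPM rescaling). Casp8, which can cut gasdermin D, was higher in untreated osteoclasts (0.94, SE 0.04, adjusted p 2.59e-10, and 0.54 after TPM rescaling). Of the cytokine substrates, all 3 were called higher with LPS in macrophages (36.8% of all genes) and 2, Il1a and Il1b, in osteoclasts (11.1%). Il1a and Il1b were below 1 FPKM in every untreated library and passed the filter through the LPS-treated groups alone. Their place in these counts therefore supports no statement about the substrates as a set. Il1b had 25 reads in all in untreated macrophages and 58742 with LPS, while in osteoclasts it had 1 and 432. Its log2 LPS effect was 9.28 (SE 0.12, adjusted p 8.49e-14) in macrophages and 2.32 (SE 0.12, adjusted p 9.47e-08, and 7.59 in voom) in osteoclasts. The difference of these effects was -6.96 (SE 0.18, adjusted p 4.86e-11, and -4.29 in voom). Il18 rose from 8.09 ± 0.959 to 31.1 ± 1.01 FPKM in macrophages (SD, n = 3, 1.82, SE 0.14, adjusted p 1.70e-07). It was at 0.566 ± 0.350 and 0.933 ± 0.132 FPKM in osteoclasts (0.33, SE 0.14, adjusted p 0.132). That osteoclast effect was 0.46 (adjusted p 0.0487) without untreated replicate 1 and 0.13 (adjusted p 0.387) without untreated replicate 2. The interaction of Il18, -1.50 (SE 0.20, adjusted p 4.09e-05), was not called with a pseudocount of 0.1, after TPM rescaling or in voom. Of 6 genes of the ESCRT machinery, which repairs gasdermin pores, Chmp4b rose in macrophages from 77.2 ± 2.37 to 174 ± 2.92 FPKM (SD, n = 3, 1.16, SE 0.04, adjusted p 7.92e-11, 0.53 after TPM rescaling and 0.33 after quantile normalization), and 3 others were called higher (36.8% of all genes were), among them Chmp2a (0.50) and Vps4b (0.36). All 3 turned below 0 after TPM rescaling and after quantile normalization. In osteoclasts limma called none of the 6, where 17.7% of all genes were called.

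**Figure D5:**
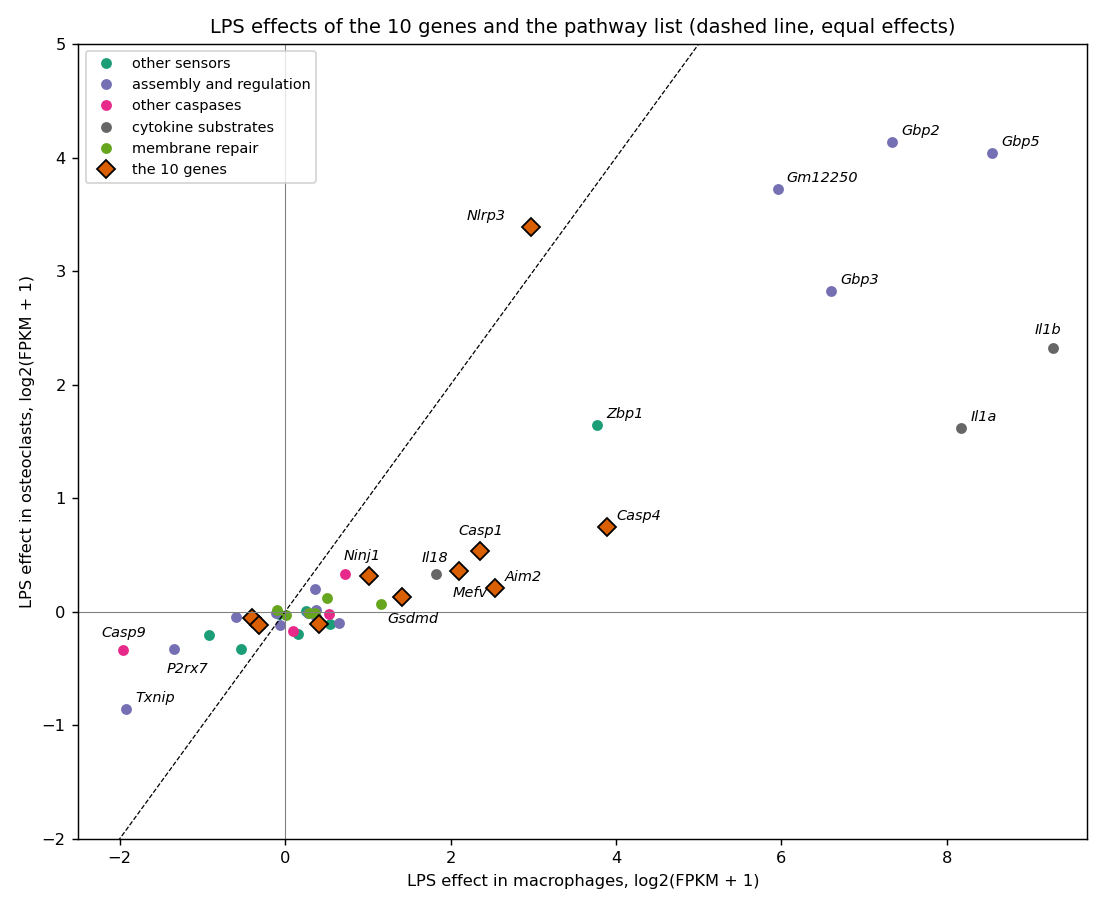
LPS effect in osteoclasts against LPS effect in macrophages, both on the log2(FPKM + 1) scale, for the 10 genes (orange diamonds) and 34 other pathway genes (circles coloured by role), with a dashed line where the effects are equal. Nlrp3, at 2.98 and 3.39, lies above the line, while Il1b, at 9.28 and 2.32, and Gbp5, at 8.55 and 4.04, lie below it. In voom, which uses no FPKM pseudocount, the osteoclast values of Il1b and Gbp5 grow to 7.59 and 6.42. Under the alternatives their macrophage values reach up to 11.87 and 11.51, and both interactions stay below 0 (highest -4.29 and -4.23).

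Genes with the most similar pattern were sought by the root-mean-square difference of centred log2(FPKM + 1) values over the 12 libraries, among tested genes averaging 1 FPKM or more. They were Rtp4 (0.422) and Marcksl1 (0.447) for Nlrp3, and Birc3 (0.114) and Sod2 (0.167) for Casp4. For Casp1 they were Klf7 (0.112) and Zeb2 (0.124), for Aim2 Socs7 (0.120) and Filip1l (0.122), and for Mefv Il2rg (0.103) and Mlkl (0.105). For Pycard the nearest was Ifngr1 (0.0802), for Nlrc4 Pip4p1 (0.0502), for Gsdmd Sept11 (0.0773), for Gsdme Akirin1 (0.0752) and for Ninj1 Hcls1 (0.0712). The difference grows with the size of a gene's changes, so it does not rank the 10 genes against each other. These distances describe 12 libraries in 4 groups and carry no test.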

How the data were processed

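RNA sequencing was analysed from the FPKM values that the authors deposited for 54532 genes in 12 libraries. The submitters' processing notes name fastp, STAR, featureCounts, DESeq2 and the build mm10, without roles or versions, and the labels give the NEBNext Ultra RNA kit. Annotation and scaling are not given in the sources used here. Gene positions are from GENCODE M21 on GRCm38 (mm10), and upstream sequences from RefSeq on GRCm38.p6. At M21 merged-exon lengths the deposited FPKM were whole multiples of 1 read, within a tolerance of 0.02 reads, for 24997 of the 25854 genes above 0 (96.7%). For others, Nlrc4 among them (4729 bases in place of 4807), a length was searched that makes the reads whole, which is no check of it and brings the number to 25818. From this, reads and denominators near those of median-of-ratios scaling were inferred.

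The members and gene lists were chosen with earlier results of these data known. The 11335 genes that reached 1 FPKM in 3 or more libraries were tested with limma 3.58.1 in R 4.3.3 (eBayes with trend) on log2(FPKM + 1), with 12 libraries in 1 fit of 4 group means, 5 contrasts and two-sided Benjamini-Hochberg adjusted p-values, called under 0.05. Log2 differences understate changes of low genes, and folds are ratios of mean FPKM. The alternatives tried were TPM, a filter of mean 5 FPKM, no filter, a pseudocount of 0.1, quantile normalization, only the groups compared, a replicate block, no variance trend, voom on recovered reads, and each library left out. Ratios within libraries were compared by exact permutation tests. Counting intervals cover counting error only. The steps were tested on simulated data. All 10 members were named. In each role and contrast at most the 3 called pathway genes with the largest absolute log2 difference were named, with Il1b and Il18 always, and the nearest genes by root-mean-square difference were ranked for each member. Some pathway genes that the rule would name are not reported here by name.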

Additional observations from a re-analysis of the deposited data

Results flagged for a closer look

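For 8 of the 10 genes the LPS effect differed between osteoclasts and macrophages by limma's interaction term (osteoclast effect minus macrophage effect, log2(FPKM + 1)), where 56.6% of all genes were called. The value was -3.15 for Casp4 (SE 0.14, adjusted p 2.76e-09), -2.34 for Aim2 (SE 0.12, adjusted p 1.39e-08) and -1.82 for Casp1 (SE 0.15, adjusted p 9.40e-07). It was -1.75 for Mefv (SE 0.16, adjusted p 1.88e-06) and -1.28 for Gsdmd (SE 0.09, adjusted p 1.21e-07). These 5 kept a call below 0 under every alternative that was run and could test them. Ninj1 was at -0.70 (SE 0.05, adjusted p 4.11e-07), Pycard at -0.51 (SE 0.09, adjusted p 2.95e-04) and Gsdme at 0.35 (SE 0.10, adjusted p 0.0110), and each of these 3 lost its call under 1 rescaling.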

How the results depend on the processing

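Of 1025 values of the 10 genes under alternatives (50 results, up to 21 settings each), 1004 kept their direction and side of the threshold, 5 lost a call, 14 gained one and 2 reversed. Pycard's LPS effect in macrophages reversed to -0.19 after TPM rescaling and Ninj1's interaction to 0.0304 after quantile normalization. Among 63 results of named pathway genes, 15 of 1299 values reversed. After TPM rescaling the LPS effect in macrophages reversed for Naip2 (-0.0676), Casp8 (-0.11), Chmp2a (-0.14) and Vps4b (-0.26), the untreated difference of the cell types for Vps4a (-0.0013) and Chmp3 (-0.13), and the interaction for Casp8 (0.0099), Vps4b (0.18) and Chmp2a (0.20). After quantile normalization Casp8 (-0.0036), Chmp2a (-0.25) and Vps4b (-0.0552) reversed in macrophages and Chmp2a (0.25) in the interaction. In voom, the interactions of Zbp1 (0.51) and Nlrp1b (-0.36) reversed. The cause was not tested.

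With a mean of at least 5 FPKM, where 6430 genes and 7 of the 10 were tested, genes called fell to 4851 for LPS in macrophages, 5427 and 5694 between cell types without and with LPS, and 4018 for the interaction. Leaving out 1 library gave 7500 to 8012 calls for LPS in macrophages, 1432 to 2031 in osteoclasts, 8495 to 8874 and 9307 to 9488 between cell types without and with LPS, and 6049 to 6345 for the interaction.

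Same-numbered libraries of different groups had correlated deviations of r -0.07 to 0.104, with 1 of 18 pairs over 0.1 and 7 of 12 libraries closest to their own number. The labels state no pairing, and these values do not settle whether same-numbered libraries share an origin. With the replicate number as a block, 7914, 1930, 8787, 9512 and 6422 genes were called in the 5 contrasts, in the order above, and the interaction of Nlrp3 (0.41, adjusted p 0.0245) and the osteoclast LPS effect of Mefv (0.35, adjusted p 0.0246) were called. Among the 10 genes, the lowest read number of a group was that of Mefv, with 5 reads over the untreated macrophage libraries.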
